A study of Mus musculus with 8 samples.

Results

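Marker genes of endothelial cells, fibroblasts and leukocytes were read in RNA from gastric tumor epithelium that had been sorted for the epithelial surface protein EpCAM, as a measure of non-epithelial cells carried through the sort. The list was given by name and its rule uses no measured value, although it was chosen with earlier results of these data known. It holds 13 endothelial, 13 fibroblast and 9 leukocyte genes, 35 in all. Each was matched by its symbol to 1 of the 27179 entries of the count table. Antral tumors came from 4 Gp130FF; Yap1WT and 4 Gp130FF; Yap1KO mice aged 18 wk, with 1 library per mouse. All 8 mice carry the homozygous gp130 mutation, Gp130FF, which gives gastric tumors without further treatment. In the Yap1KO group the labels give the genotype gp130FF;Yap1 flox/flox, and the study's methods describe Tff1:CreERT2, a tamoxifen-dependent Cre recombinase under a promoter active in surface (foveolar) cells of the stomach, so that Yap1 in endothelial cells, fibroblasts and leukocytes is not the target. The labels state day 3 after tamoxifen for all 8 mice, whereas the study's methods describe vehicle-treated floxed littermates as Yap1WT, and that difference between the sources was not settled here. The results section of the study gives an older age than its methods and the labels. P-values measure the spread between mice, and the mice were of both sexes.

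EpCAM sorting keeps epithelial cells and should leave out the tumor stroma. Endothelial cells line blood vessels and are held together by junction proteins such as those of Pecam1 and Cdh5, and they answer to VEGF through the receptors of Kdr and Flt1 and to angiopoietins through that of Tek. Fibroblasts lay down fibrillar collagens and small proteoglycans such as decorin, and mural cells, pericytes and smooth muscle, wrap vessels and carry contractile actin. Leukocytes share the surface phosphatase of Ptprc (CD45), to which macrophages, T cells, NK cells and B cells add markers of their own. In bulk RNA, fewer cells of a type and less RNA per cell cannot be told apart.

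The starts of member genes are shown first, and no link between these sequences and the levels described below was tested. RefSeq promoter windows of GRCm38.p6 matched 23 of the 35 members, and for 3 of them, whose windows end just before the gene as annotated, the 250 bases before the start are printed 5′ to 3′ on the strand of the gene. Windows of Flt1 and Acta2 reach into the annotated gene and are not printed, since a gene can have several starts. Capitals mark AGGAAG, a word bound by ETS factors, which act in endothelial cells and leukocytes, or GGAATG, a word bound by TEAD factors, the DNA-binding partners of YAP1; either is marked on either strand.
Tie1 (chr4:118489850-118490099, minus strand): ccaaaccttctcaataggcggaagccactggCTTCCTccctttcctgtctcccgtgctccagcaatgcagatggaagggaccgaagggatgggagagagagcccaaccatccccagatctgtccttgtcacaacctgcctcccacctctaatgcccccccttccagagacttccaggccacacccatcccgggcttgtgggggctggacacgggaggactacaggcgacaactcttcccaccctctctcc
Eng (chr2:32646345-32646594, plus strand): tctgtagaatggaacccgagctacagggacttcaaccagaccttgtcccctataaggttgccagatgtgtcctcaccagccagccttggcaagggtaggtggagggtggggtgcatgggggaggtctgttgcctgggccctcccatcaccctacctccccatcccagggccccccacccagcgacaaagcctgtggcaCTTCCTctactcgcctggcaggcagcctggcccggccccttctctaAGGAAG
Col3a1 (chr1:45311288-45311537, plus strand): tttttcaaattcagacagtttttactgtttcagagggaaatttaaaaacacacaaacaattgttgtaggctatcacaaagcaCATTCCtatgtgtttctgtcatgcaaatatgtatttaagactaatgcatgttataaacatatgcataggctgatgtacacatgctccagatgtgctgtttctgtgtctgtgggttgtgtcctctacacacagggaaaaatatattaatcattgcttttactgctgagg
AGGAAG stood in the windows of 5 of the 8 endothelial members with a window, Egfl7, Emcn, Eng, Flt1 and Tie1, and in 29.5% of the 32851 windows of all genes. Leukocyte members held it in 5 of 7 windows and fibroblast members in 3 of 8. GGAATG stood in 3 of 8 fibroblast windows, Acta2, Col3a1 and Col6a2, in none of the 8 endothelial or 7 leukocyte windows, and in 12.6% of all windows. The shorter word GGAA stood in 93.4% of all windows. These matches describe the letters of the windows, and 11 motifs were searched after the expression values had been seen.

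Total counts were 18229945 to 77483047 per library, lowest in Yap1KO replicate 4, which also stood apart on the first principal component (66.8, against -17.9 to 1.34 in the other 7 libraries). Yap1 had 64.2 to 78.0 CPM (counts scaled to library size with TMM factors) in Yap1WT and 21.3 to 29.7 CPM in Yap1KO, so every library matched its label. Epcam itself was 938 to 1036 CPM in the Yap1WT mice and 1524 to 1759 CPM in the Yap1KO mice (log2 fold change 0.76, SE 0.10, edgeR adjusted p = 0.00188), without overlap. Xist and Ddx3y counts marked Yap1WT replicates 1 and 4 and Yap1KO replicate 4 as female, so that sex was not balanced between the groups. Genes above 0.5 CPM in at least 6 libraries were tested, 13495 in all. Of the 35 members 30 passed this filter and 5 leukocyte genes did not.

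Endothelial transcripts were present in every sorted library and were higher in the Yap1KO group for 2 of the 13 members, Vwf and Tie1. All 13 members passed the filter, and none was called lower by edgeR, DESeq2 or limma. At an unadjusted p under 0.05 in edgeR, 11 of 13 had higher values, against 11.5% of all genes, and none had a lower value. Over all genes tested, 3.53% were called higher and 2.34% lower in Yap1KO by edgeR's quasi-likelihood test at an adjusted p under 0.05. The fitted log2 fold change was above 0 for 13 of 13 endothelial members, against 48.6% of all genes, and at least 1 for 10 of 13, against 5.25%. The median of the 13 was 1.25, and that of all genes tested was -0.01.

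Vwf encodes von Willebrand factor, the clotting protein that endothelial cells store and release, and lies at chr6:125552948-125686679 in GRCm38. It had 35.1, 29.8, 12.96 and 45.9 CPM in the Yap1WT mice, numbered 1 to 4, and 79.8, 127, 49.3 and 136 CPM in the Yap1KO mice in the same order of numbers. The groups did not overlap, although Yap1KO replicate 3 lay only just above Yap1WT replicate 4. Its log2 fold change was 1.66 (SE 0.39, edgeR adjusted p = 0.0360). Tie1, an endothelial receptor tyrosine kinase of the angiopoietin system, lies at chr4:118471191-118489849 and carries the ETS word in the window printed above. Tie1 measured 13.6, 14.2, 7.48 and 25.5 CPM in the Yap1WT mice and 28.1, 50.6, 34.3 and 48.8 CPM in Yap1KO. Here too every Yap1KO library was above every Yap1WT library, by a narrow margin between Yap1WT replicate 4 and Yap1KO replicate 1 (log2 fold change 1.42, SE 0.33, edgeR adjusted p = 0.0355). Such separation of the groups was found for 2 of 13 endothelial members and 7.19% of all genes.

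Adhesion and junction genes of the vessel wall, Pecam1, Cdh5, Esam and Cldn5, did not pass the test. Pecam1 (CD31) was at 43.6, 42.0, 27.8 and 85.5 CPM in the Yap1WT mice and 75.1, 113, 107 and 167 CPM in Yap1KO. Only Yap1WT replicate 4 reached into the Yap1KO range, and the log2 fold change was 1.22 (SE 0.33, edgeR adjusted p = 0.0635). Cdh5, the cadherin of endothelial junctions, gave 1.25 (SE 0.39, edgeR adjusted p = 0.100). Esam, an adhesion molecule of endothelial junctions, had 13.9, 15.2, 9.76 and 27.8 CPM in the Yap1WT mice and 23.0, 45.3, 41.1 and 45.5 CPM in Yap1KO. With a log2 fold change of 1.22 (SE 0.32, edgeR adjusted p = 0.0512) it missed the threshold by the least of the 13. Cldn5, a claudin of tight junctions, was the scarcest member of the list at 0.463 to 4.48 CPM in the Yap1WT mice and 0.795 to 4.42 CPM in Yap1KO, and its groups covered nearly the same range (log2 fold change 0.20, SE 0.73, edgeR adjusted p = 0.915).

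Plvap, which forms the diaphragms of fenestrated capillaries, was the most abundant endothelial member per length in each library, at 4.89 to 6.86 log2 RPKM in Yap1WT and 6.71 to 7.65 log2 RPKM in Yap1KO (a level per gene length, as deposited by the authors). In comparison, Epcam was at 8.75 to 9.78 log2 RPKM over the 8 libraries. Plvap gave 95.7, 90.2, 60.1 and 239 CPM in the Yap1WT mice and 214, 348, 309 and 403 CPM in Yap1KO. Yap1WT replicate 4 was above Yap1KO replicate 1, and the log2 fold change of 1.39 (SE 0.38) had an edgeR adjusted p of 0.0649. Plvap overlaps Gtpbp3, and the kit did not mark strand, so reads of the shared stretch cannot be told apart; Gtpbp3 itself had a log2 fold change of 0.13 (SE 0.15). Emcn, the sialomucin endomucin of capillaries and veins, ran from 5.26 to 24.2 CPM in the Yap1WT mice and from 9.96 to 34.7 CPM in the Yap1KO mice (log2 fold change 0.96, SE 0.48, edgeR adjusted p = 0.302).

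Among the receptors, the VEGF receptors differed more than the angiopoietin receptor Tek in fitted size, a contrast between genes that was not tested. Kdr, the main signaling receptor of VEGF, had 20.2, 17.5, 13.9 and 54.0 CPM in the Yap1WT mice and 45.6, 70.6, 66.4 and 111 CPM in Yap1KO. Yap1WT replicate 4 exceeded Yap1KO replicate 1, and the log2 fold change was 1.48 (SE 0.42, edgeR adjusted p = 0.0736). Flt1, a high-affinity VEGF receptor with weak signaling of its own, showed the same order, with 45.1 CPM in Yap1WT replicate 4 against 11.99 to 16.9 CPM in the other 3 Yap1WT libraries and 35 to 66.8 CPM in the Yap1KO mice (log2 fold change 1.21, SE 0.39, edgeR adjusted p = 0.111). Eng, the TGF-β co-receptor endoglin, measured 15.3 to 73.8 CPM in the Yap1WT mice and 72.6 to 145 CPM in Yap1KO. Its groups met at Yap1WT replicate 4 and Yap1KO replicate 1 (log2 fold change 1.48, SE 0.40, edgeR adjusted p = 0.0620), and it shares bases with Fpgs, whose log2 fold change was 0.09 (SE 0.14). Tek gave 13.8, 22.6, 16.4 and 23.1 CPM in the Yap1WT mice and 21.8, 24.4, 29.5 and 29.2 CPM in Yap1KO, with the smallest SE of the list (log2 fold change 0.47, SE 0.19, edgeR adjusted p = 0.193). Egfl7, a secreted protein of sprouting vessels and host of the microRNA gene Mir126a, had 6.63 to 18.6 CPM in the Yap1WT mice and 17.5 to 57.6 CPM in the Yap1KO mice (log2 fold change 1.40, SE 0.39, edgeR adjusted p = 0.0686).

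**Figure D1:**
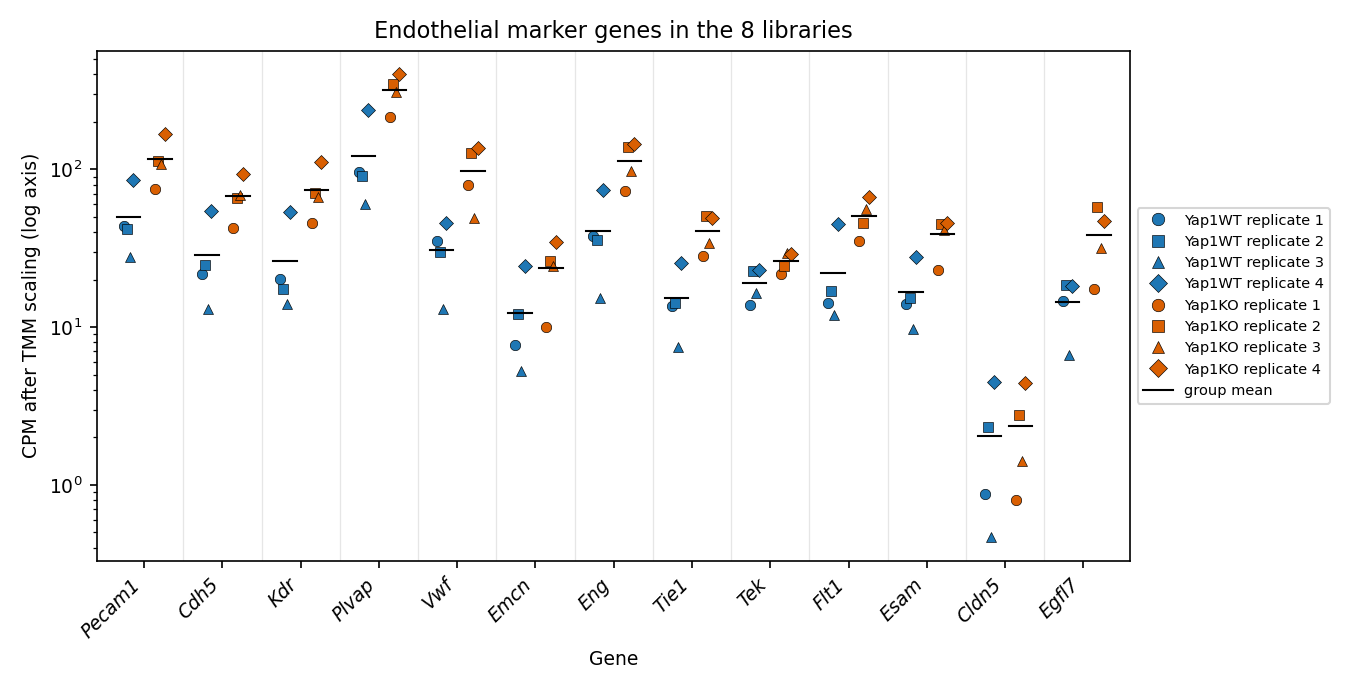
TMM-scaled CPM (log axis) of the 13 endothelial genes in each of the 8 libraries, with 1 point per mouse, blue for Yap1WT, orange for Yap1KO, and a black line at each group mean. Yap1WT replicate 4 (blue diamonds) sits at or near the lowest Yap1KO library for most genes, and the groups are fully apart for Vwf and Tie1.

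The libraries kept a common order across the list. Yap1WT replicate 3 was the lowest of its group for 12 of 13 endothelial members and replicate 4 the highest for 12 of 13. In Yap1KO, replicate 1 was the lowest for 12 of 13 and replicate 4 the highest for 10 of 13. Summed over the list, the level was 333, 341, 201 and 721 CPM in the Yap1WT mice and 665, 1115, 916 and 1331 CPM in Yap1KO, so that Yap1WT replicate 4 exceeded Yap1KO replicate 1. The mean sum was 399 ± 224 CPM in the Yap1WT mice and 1007 ± 284 CPM in Yap1KO (SD, n = 4 each), a ratio of 2.52. Set against Epcam in the same library, the sum was 21.5 to 76.7 per 100 CPM of Epcam in Yap1WT and 37.8 to 78.6 in Yap1KO, with means of 41.2 and 61.2. On that scale the fibroblast means were 49.4 and 60.6, and the leukocyte means were 1.89 in Yap1WT and 1.33 in Yap1KO, the reverse of their order in CPM. Epcam itself was higher in Yap1KO, which lowers every ratio of Yap1KO to Yap1WT on that scale. The summed epithelial list of 16 genes had a ratio of means of 1.03, with log2 fold changes of single genes from -0.42 to 0.76. With libraries scaled to that list, edgeR called 2 endothelial members higher (2.58% of all genes). Vwf then had a log2 fold change of 1.63 and Plvap of 1.40.

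Members differed in how far their share of the sum varied. Plvap made up 26.4% to 33.1% of it in Yap1WT and 30.3% to 33.7% in Yap1KO. Pecam1 contributed 11.9% to 13.8% and 10.1% to 12.6%. Tek took 3.21% to 8.18% in Yap1WT and 2.18% to 3.27% in Yap1KO, its largest share being in Yap1WT replicate 3, the library with the lowest sum. Vwf ranged from 5.38% to 11.99% over the 8 libraries and Cldn5 from 0.12% to 0.68%.

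The number of endothelial calls turned on single libraries. Without Yap1WT replicate 4, 9 of 13 members were called higher, the 2 above with Pecam1, Cdh5, Kdr, Plvap, Eng, Flt1 and Esam, beside 3.54% of all genes. None was called without replicate 1 (2.3% of all genes), 2 (2.53%) or 3 (1.74%) of Yap1WT, nor without replicate 2 (3.42%) or 4 (1.91%) of Yap1KO. Leaving out Yap1KO replicate 1 gave 3 calls (2.09% of all genes), and leaving out replicate 3 gave 1 (2.58%). With a term for sex 9 members were called (4.55% of all genes), and in the 5 male libraries alone 3 were, Kdr, Plvap and Flt1 (0.841% of all genes). Every endothelial member but Cldn5 kept a log2 fold change above 0 in each of these fits.

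**Figure D2:**
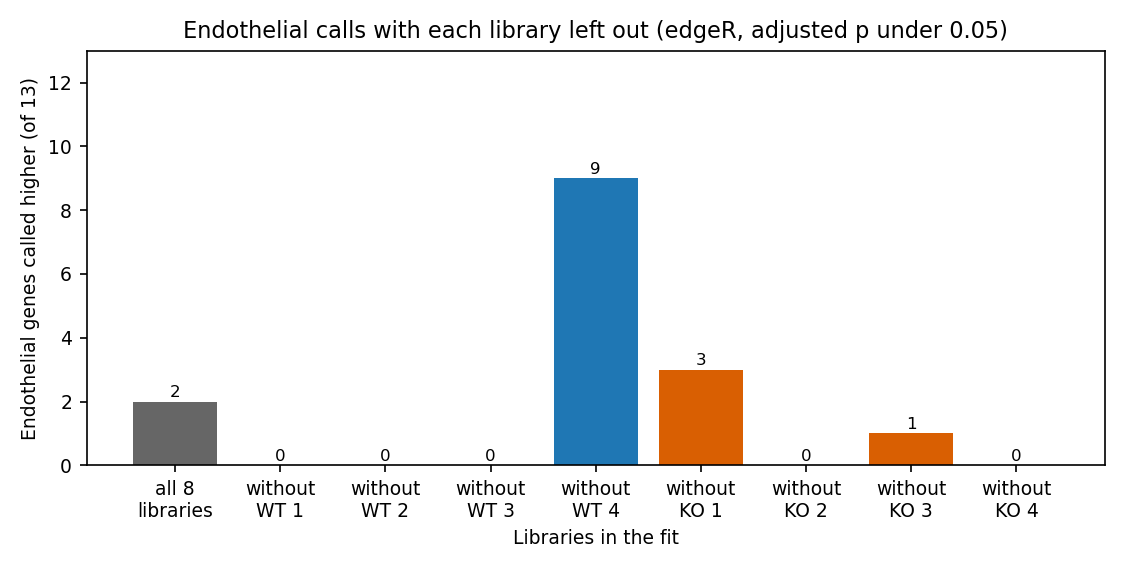
Bars give the number of the 13 endothelial genes called higher in Yap1KO (edgeR, adjusted p under 0.05) with all 8 libraries (gray) and with each library left out in turn. The count is 2 with all libraries, 9 without Yap1WT replicate 4 and 0 without 5 of the other libraries.

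Further endothelial genes from a list of 28 gave 3 that were called higher (3.53% of all genes) and none lower, with a median log2 fold change of 1.12. Higher values at an unadjusted p under 0.05 were found for 22 of the 28, against 11.5% of all genes. Aplnr, the apelin receptor of sprouting and venous endothelium, had 8.28, 11.0, 3.92 and 9.63 CPM in the Yap1WT mice and 20.4, 39.0, 29.4 and 34.3 CPM in Yap1KO. Its adjusted p was below that of each of the 13 members (log2 fold change 1.91, SE 0.31, edgeR adjusted p = 0.00594), and Yap1WT replicate 4 was within the range of its group. Ecscr (1.20, SE 0.27, edgeR adjusted p = 0.0281) and Mmrn2 (1.34, SE 0.32, edgeR adjusted p = 0.0352) were the other two called, both genes of the endothelial surface and its matrix. Of 7 lymphatic genes 6 were tested and edgeR called none, beside 3.53% of all genes higher and 2.34% lower. At an unadjusted p under 0.05, 1 of the 6 had higher values, Flt4, against 11.5% of all genes. Flt4 had a log2 fold change of 1.26 (SE 0.37, edgeR adjusted p = 0.0814) and Pdpn of 1.53 (SE 0.75, edgeR adjusted p = 0.292). Pdpn was at 28.1 CPM in Yap1KO replicate 4 and 2.92 to 7.29 CPM in the other Yap1KO libraries. Lyve1 had the only value below 0 (-0.20, SE 0.37), and Prox1 was at 0.01 (SE 0.47). Ligands and co-receptors of the member receptors, 17 tested of 19, gave no call in either direction at the same threshold. Higher values at an unadjusted p under 0.05 were found for 5 of the 17, against 11.5% of all genes, and lower values for none. The 5 were Angpt2, Acvrl1, Tgfb1, Pdgfb and Pdgfa, with log2 fold changes of 1.29, 0.96, 0.72, 0.68 and 0.46. Vegfa, the VEGF ligand, was at 130 and 157 CPM on average (log2 fold change 0.27, SE 0.13, edgeR adjusted p = 0.276), and Nrp2 at 39.3 and 39.6 CPM (0.01, SE 0.16).

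Fibroblast and mural transcripts were also present in the sorted libraries, and none of the 13 members passed the test in either direction, with 2 at an unadjusted p under 0.05, Sparc and Vim, against 11.5% of all genes with higher values at that level. DESeq2 and both limma fits also called none of them. The median log2 fold change was 1.03, against -0.01 for all genes tested. It was above 0 for 12 of 13, against 48.6% of all genes, and at least 1 for 7 of 13, against 5.25%. Spread between mice of a group was wide: the median biological coefficient of variation was 0.613 for the fibroblast members, 0.381 for the endothelial members and 0.197 for all genes tested. The summed level was 508, 256, 142 and 1010 CPM in the Yap1WT mice and 461, 767, 1319 and 1403 CPM in Yap1KO. Yap1WT replicate 4 exceeded 2 of the 4 Yap1KO libraries, and the groups overlapped for all 13 members. Most genes overlap: every Yap1KO library was above every Yap1WT library for 7.19% of all genes, and below for 6.01%.

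Matrix genes made up most of that sum. Col3a1, the type III collagen of reticular fibers, had 136, 54.8, 45.3 and 309 CPM in the Yap1WT mice and 132, 176, 355 and 460 CPM in Yap1KO. The range within Yap1WT was wider than the step between the group means (log2 fold change 1.05, SE 0.60, edgeR adjusted p = 0.374). Col1a1 and Col1a2, the chains of type I collagen, gave 1.21 (SE 0.64, edgeR adjusted p = 0.332) and 1.35 (SE 0.69, edgeR adjusted p = 0.315). For the type VI collagen chains Col6a1 and Col6a2 the values were 0.40 (SE 0.69) and 0.49 (SE 0.69), with 48.5 and 61.9 CPM in Yap1KO replicate 3 and 12 to 29.5 CPM in the other Yap1KO libraries over both genes. Both were below 0 without Yap1KO replicate 3, at -0.13 and -0.18.

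Sparc, a collagen-binding matrix protein, was at 56.6, 54.2, 26.4 and 118 CPM in the Yap1WT mice and 73.7, 145, 187 and 198 CPM in Yap1KO. Its log2 fold change was 1.24 (SE 0.42, edgeR adjusted p = 0.128), and it was called without Yap1WT replicate 4 (1.72, edgeR adjusted p = 0.0302). Sex was not balanced, and with a term for it Sparc (1.55, edgeR adjusted p = 0.0391), Col1a2 (2.26, edgeR adjusted p = 0.0171) and Col3a1 (1.77, edgeR adjusted p = 0.0334) were called, beside 4.55% of all genes. Sparc is also made by endothelial cells. Vim, the intermediate filament of mesenchymal cells, endothelium and leukocytes, ran from 8.93 to 44.9 CPM in the Yap1WT mice and from 29.9 to 89.5 CPM in Yap1KO (1.17, SE 0.45, edgeR adjusted p = 0.169). The proteoglycans went different ways: Dcn had a log2 fold change of 0.63 (SE 0.51) and Lum of -0.42 (SE 0.63), neither past the test.

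Lum was the only fibroblast member with a negative value. It measured 6.03, 3.87, 1.45 and 17.2 CPM in the Yap1WT mice and 6.43, 7.64, 4.38 and 2.73 CPM in Yap1KO, and Yap1WT replicate 4 carried most of its Yap1WT level. Without that library its log2 fold change was 0.49.

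Among receptors, contractile and surface genes, Pdgfra was highest in Yap1KO replicate 4, and Pdgfrb, Acta2 and Thy1 in Yap1KO replicate 3. Pdgfra, the PDGF receptor of fibroblasts, had 17.8, 3.45, 0.796 and 18.6 CPM in the Yap1WT mice and 9.58, 4.42, 27.1 and 37.3 CPM in Yap1KO. The highest Yap1WT library was 23.3 times the lowest, the widest ratio on the list. Pdgfrb, the receptor of pericytes and fibroblasts, was highest in Yap1WT replicate 4 (17.7 CPM) and Yap1KO replicate 3 (39.2 CPM), with 13.2 CPM in Yap1KO replicate 4. Acta2, smooth muscle actin, had 14.8, 9.99, 13.2 and 53.7 CPM in the Yap1WT mice and 14.0, 37.9, 93.3 and 15.2 CPM in Yap1KO. Its fold change of 0.82 (SE 0.68, log2, edgeR adjusted p = 0.552) fell to -0.03 without Yap1KO replicate 3. Thy1 followed the same libraries, at 7.63 CPM in Yap1WT replicate 4 and 15.4 CPM in Yap1KO replicate 3, and gave 1.03 (SE 0.65).

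**Figure D3:**
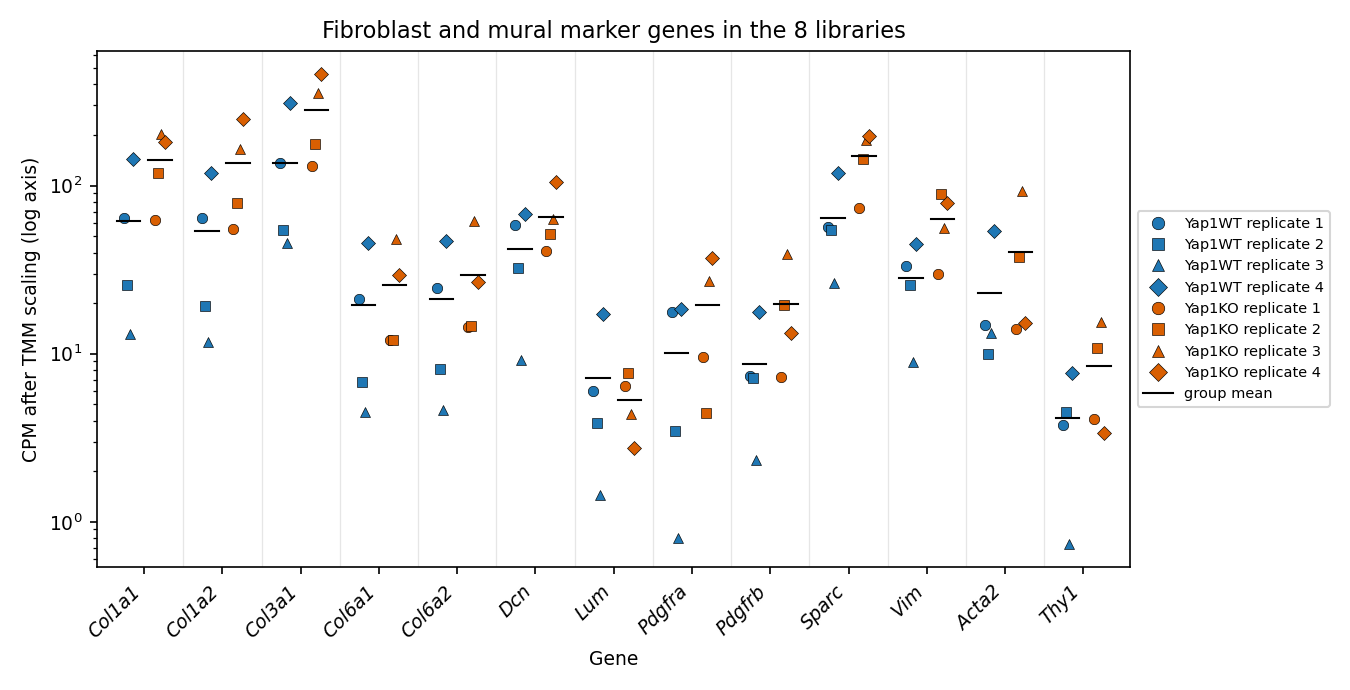
TMM-scaled CPM (log axis) of the 13 fibroblast and mural genes by library, drawn as in the endothelial plot. The groups overlap for every gene, where 7.19% of all genes tested lie fully higher in Yap1KO and 6.01% fully lower. Yap1WT replicate 3 (blue triangles) is lowest in its group for 12 of 13 genes and replicate 4 (blue diamonds) highest for 13 of 13.

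A list of 13 pericyte and smooth muscle genes showed the same pair of libraries on top: Yap1WT replicate 4 was the highest of its group for 13 of 13 and Yap1KO replicate 3 for 12 of 13. None of the 13 was called, and 3 had higher values at an unadjusted p under 0.05, against 11.5% of all genes. Notch3 lay at the threshold itself (log2 fold change 1.04, SE 0.27, edgeR adjusted p = 0.05). Every Yap1KO library was above every Yap1WT library for Notch3, as for 7.19% of all genes. The most abundant, Mcam, also an endothelial adhesion molecule, had a log2 fold change of 1.30 (SE 0.38, edgeR adjusted p = 0.0785), and Tagln of 0.42 (SE 0.48). Of 20 further fibroblast genes 17 were tested and edgeR called none. At an unadjusted p under 0.05, where 11.5% of all genes had higher values, 1 of the 17 did. That gene was neither of the most abundant, C3 (1.18, SE 0.59) and Fn1 (0.55, SE 0.38). C3 was at 590 CPM in Yap1KO replicate 4 and 71.4 to 183 CPM in the other Yap1KO libraries. Among 10 basement membrane genes 1 was called higher, Col18a1, beside 3.53% of all genes. Col18a1 was at 272, 303, 254 and 439 CPM in the Yap1WT mice and 602, 584, 602 and 654 CPM in the Yap1KO mice (log2 fold change 0.95, SE 0.17, edgeR adjusted p = 0.00843). At an unadjusted p under 0.05, 8 of the 10 had higher values (11.5% of all genes). The log2 fold change was at least 1 for 7 of the 10 (5.25% of all genes). Epithelial cells also make basement membrane chains, so that list does not mark stroma alone.

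In the 5 male libraries every Yap1KO library was above both Yap1WT libraries for 12 of 13 fibroblast members and 9 of 13 endothelial members, beside 18.7% of all genes. None of the fibroblast members was called there. The Yap1WT libraries in that set, replicates 2 and 3, had the group's lowest fibroblast sums, and replicate 3 its lowest endothelial sum.

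**Figure D4:**
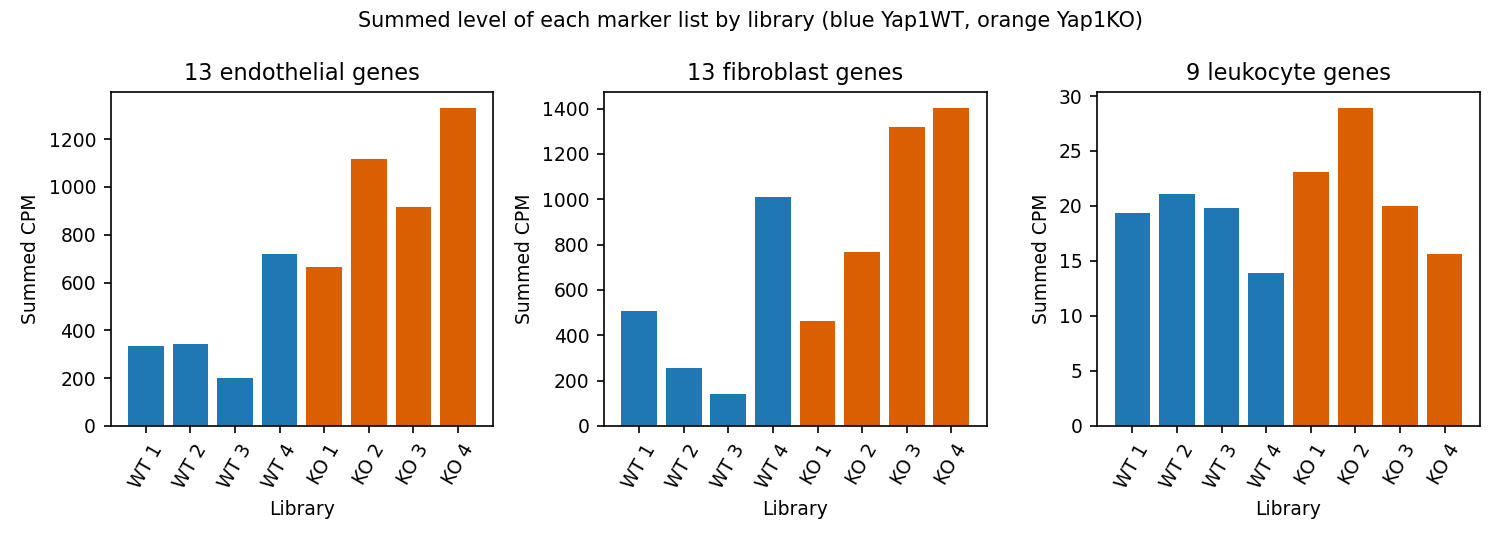
Summed TMM-scaled CPM of the 13 endothelial, 13 fibroblast and 9 leukocyte genes in each library (1 bar per mouse, axes from 0, blue Yap1WT, orange Yap1KO). Yap1WT replicate 4 stands at 721 CPM for the endothelial and 1010 CPM for the fibroblast list, within the Yap1KO range of both, while the leukocyte sums stay between 13.9 and 28.9 CPM.

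Leukocyte genes were scarce in all 8 libraries. Their 9 members summed to 19.4, 21.1, 19.8 and 13.9 CPM in the Yap1WT mice and 23.1, 28.9, 19.96 and 15.6 CPM in Yap1KO. Only 4 of the 9 passed the filter, and 2 of these were called higher, Cd68 and Pou2af1, where 3.53% of all genes were. Since members passed through their level in these libraries, the count does not stand for the list.

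Cd68, a lysosomal membrane protein abundant in macrophages and present in other cells, lies at chr11:69664213-69666170. It had 2.84, 3.61, 2.53 and 2.90 CPM in the Yap1WT mice and 6.01, 7.89, 6.46 and 4.31 CPM in Yap1KO. The groups did not overlap (log2 fold change 1.06, SE 0.27, edgeR adjusted p = 0.0468). Pou2af1, a transcriptional co-activator of the B lineage at chr9:51213690-51240079, measured 6.14, 5.73, 3.63 and 3.19 CPM in the Yap1WT mice and 11.7, 11.7, 10.4 and 7.04 CPM in Yap1KO. Again every Yap1KO library was above every Yap1WT library (log2 fold change 1.13, SE 0.28, edgeR adjusted p = 0.0428). Both calls were lost on leaving out any library except Yap1KO replicate 4, with edgeR adjusted p up to 0.149 for Cd68 and 0.138 for Pou2af1.

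Ptprc (CD45), the marker shared by leukocytes, ran the other way in every library without reaching the threshold. It had 7.63, 6.15, 12.4 and 5.62 CPM in the Yap1WT mice and 4.47, 4.29, 1.19 and 4.26 CPM in Yap1KO. Every Yap1KO library was below every Yap1WT library, as for 6.01% of all genes, and the log2 fold change was -1.17 (SE 0.43, edgeR adjusted p = 0.151). Lyz2, the lysozyme of myeloid cells, was at 1.04 to 4.75 CPM in the Yap1WT mice and 0 to 4.23 CPM in the Yap1KO mice (log2 fold change -0.50, SE 0.96), and its reads are uncertain because Lyz1 is nearly identical.

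The defining markers of single leukocyte classes were at or near 0. Csf1r, the macrophage colony-stimulating factor receptor, had 122 reads over the 8 libraries and Adgre1 (F4/80) had 72. For lymphocytes, Cd3e had 7 reads, the cytotoxic granule protein gene Nkg7 had 8 and the B cell receptor subunit Cd79a had 21. A count of 0 allows up to 0.0387 CPM in the deepest library and 0.164 CPM in the shallowest, taking 3 counts as the limit and counting error only. Cd68 thus rose beside Csf1r and Adgre1 at 0 to 0.967 CPM, and Pou2af1 beside Cd79a at 0 to 0.1397 CPM, and the cell source of either transcript was not tested.

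Lists of single leukocyte classes were tested only in part. Of 14 T and NK cell genes 1 was tested, Lck (0.19, SE 0.47), with Cd7 at 0 to 0.207 CPM, and of 10 B and plasma cell genes 1, with no call by edgeR and none at an unadjusted p under 0.05. Igha and Igkc, the most abundant of the latter, ranged from 0 to 9.60 and from 0 to 6.16 CPM. Of 14 macrophage and dendritic cell genes 5 were tested and none passed either level, with Cd14 at 50.7 and 41.1 CPM on average (-0.31, SE 0.24) and Cd74 at 5.44 and 11.0 CPM (1.01, SE 0.67). Neutrophil and mast cell genes gave 2 called higher of 3 tested, beside the same 3.53%, and the one not called, Mcpt2, was at 93.6 and 507 CPM on average. Mcpt4 had 1.06 to 5.48 CPM in the Yap1WT mice and 38.2 to 223 CPM in the Yap1KO mice (log2 fold change 5.25, SE 0.69, edgeR adjusted p = 0.00183), and Mcpt1 gave 2.57 (SE 0.65, edgeR adjusted p = 0.0473). These encode mast cell proteases, while the mast cell markers Cpa3, Tpsb2 and Fcer1a stayed at 0 to 0.565 CPM in the Yap1WT mice and 0 to 0.116 CPM in Yap1KO. Red cell and platelet genes, 5 tested, gave no call at either level (Hba-a2 -1.04, SE 0.92, and Ppbp 0.21, SE 0.68). Of 5 nerve and glia genes tested 1 was called higher, Tubb3 (1.42, SE 0.32, edgeR adjusted p = 0.0299), beside 3.53% of all genes. On the epithelial list of 16 genes, all tested, Epcam was the 1 gene called, beside 3.53% of all genes higher and 2.34% lower. At an unadjusted p under 0.05 in edgeR, 5 of the 16 had higher values (11.5% of all genes) and 4 lower values (8.97%).

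**Figure D5:**
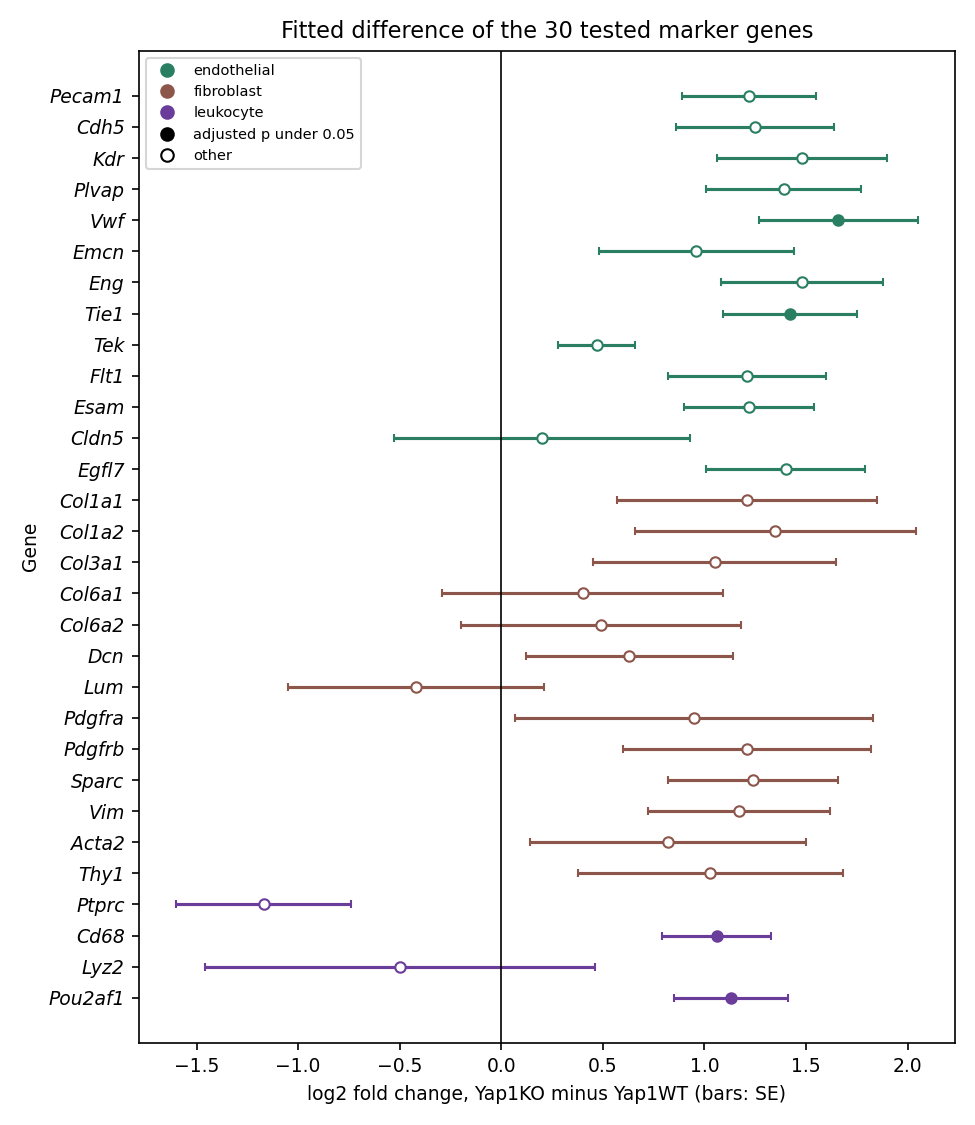
Log2 fold change of Yap1KO over Yap1WT with its SE (bars) for the 30 members tested, by list, filled where edgeR's adjusted p was under 0.05. Vwf, Tie1, Cd68 and Pou2af1 are filled; 12 of 13 fibroblast and all 13 endothelial values lie above 0, with bars wider for the fibroblast genes, and Ptprc lies at -1.17.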

How the data were processed

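RNA of EpCAM-positive antral tumor cells was sequenced in 8 libraries, 4 per group, with an unstranded kit. Subread (alignment to GRCm38/mm10) and featureCounts (RefSeq genes) were used by the authors, and the deposited count table holds whole numbers without normalization. The deposited log2 values are log2 RPKM, which the authors made with voom and quantile normalization. Count columns were matched to samples by mouse number, and 6 columns without a matching sample stayed unused. Entries without a symbol (0.552% to 0.789% of a library's counts) were left out, as were pseudogenes that the log2 values do not hold.

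Counts were tested in R 4.3.3 with edgeR 4.0.16 (TMM, quasi-likelihood F test, Benjamini-Hochberg adjustment) on 13495 genes that passed 0.5 CPM in 6 or more libraries. Library sizes were the totals of all named entries, a choice taken up after a first run that summed the tested genes only, to use the same totals as the filter. An SE is the size of the log2 fold change divided by the square root of F. The script was tested on simulated data. DESeq2 1.42.0, limma 3.58.1, other scalings and filters, blocks, a sex term and leaving out each library were alternatives. Python 3.11.15, pandas 2.3.3 and matplotlib 3.10.9 made the tables and plots.

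Named genes are all 35 members, Yap1, Epcam, and of each further list at most 4 called genes a direction, by smallest p, or the 2 most abundant of a list without calls. Gtpbp3, Fpgs, Lyz1, Xist, Ddx3y, Mcpt2, Cpa3, Tpsb2 and Fcer1a were chosen outside it, after values were seen. So were Lyve1, Prox1, Notch3, Angpt2, Acvrl1, Tgfb1, Pdgfb and Pdgfa. Members and lists were chosen with earlier results of these data known.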

Additional observations from a re-analysis of the deposited data

Results flagged for a closer look

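In 10 of 76 groups of 4 libraries a member's highest or lowest library lay far from the other 3. The 76 groups include the summed lists. The rule marks about 1 in 20 groups by chance only for independent, normally spread values. Members shared an order of libraries, and for Cd3e, Nkg7 and Cd79a only 1 library of the group named below had reads. The count of 10 was therefore not compared with that rate. Yap1WT replicate 4 stood above its group for Kdr (54.0 CPM), Flt1 (45.1 CPM) and Acta2 (53.7 CPM), in 2 lists. Yap1KO replicate 3 stood below its group for Ptprc, at 1.19 CPM. The other six values are of genes near 0 in every library: Adgre1 in Yap1WT replicate 2 (0.489 CPM), Cd3e in Yap1WT replicate 3 (0.0579 CPM) and Yap1KO replicate 2 (0.0947 CPM), Nkg7 in Yap1WT replicate 1 (0.0645 CPM) and Yap1KO replicate 3 (0.0387 CPM), and Cd79a in Yap1KO replicate 3 (0.0646 CPM). What sets Yap1WT replicate 4 apart was not tested.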

How the results depend on the processing

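Of 690 member values under 23 alternatives, 585 kept direction and side of the threshold, 56 passed it, 37 lost it and 12 turned in sign. Endothelial calls, 2 as reported, were, beside the share of all genes called higher, 6 with no filter (2.35%), 1 with robust dispersion (3.56%), 6 with the mouse number series as a block (4.43%), 9 with a sex term (4.55%), 7 with DESeq2 (6.62%), 9 with limma-voom (4.23%), 6 with limma-trend on the log2 values (3.32%) and 0 to 9 with a library left out. Fibroblast calls, 0 as reported, were 3 with the sex term (Col1a2, Col3a1, Sparc) and 0 to 1 with a library left out. Leukocyte calls, 2 as reported, were 0 scaled to the epithelial list (2.58%), with no filter, with the sex term and in male libraries only, and 0 to 2 with a library left out. Calls over all genes, 476 higher and 316 lower, were 858 and 587 with DESeq2, 114 and 66 in male libraries only, and 238 to 483 and 154 to 283 with a library left out. The male set and library sizes over the tested genes only (478 higher, 316 lower, 2, 0 and 2 member calls) were added after seeing the data. The causes were not tested.

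With the replicate number as a block, endothelial calls were 10 (5.59% of all genes) and those of all genes 755 higher and 552 lower. Same-numbered libraries deviated with correlations of 0.036, 0.3472, 0.0517 and 0.1485. The other pairs of a Yap1WT and a Yap1KO library had correlations of -0.2415 to 0.1986. Whether the numbers pair mice was not settled, and the main fit used no block. Signs turned for Lum (0.13 with the replicate block, 0.25 with the sex term, 0.12 with limma-voom, 1.22 in male libraries only, -0.76 to 0.49 with a library left out) and, with a library left out, for Cldn5 (-0.29 to 0.94, below 0 without Yap1WT replicate 1 or 3 or Yap1KO replicate 4), Col6a1 (-0.13 to 1.23), Col6a2 (-0.18 to 1.23) and Acta2 (-0.03 to 1.66), each below 0 without Yap1KO replicate 3, and Lyz2 (-1.66 to 0.20, above 0 without Yap1WT replicate 2). None of the turned values passed the test. With 18229945 counts, Yap1KO replicate 4 limits what could be seen of the scarce leukocyte genes.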
